A study of Mus musculus with 56 samples.

Results

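The NRF2 and antioxidant defence genes are a list of 35 mouse genes that was written from gene symbols: the NRF2 regulators and the enzymes, carriers and storage proteins that handle haem, quinones, glutathione, thioredoxin, superoxide, peroxide and NADPH. Of these, 33 had a probe set with 1 gene symbol on at least 1 of the 3 array types, out of 23600 genes in the series with such a probe set, and the expression of G6pdx and Prdx6 was not analysed here. On the Mouse430_2 arrays 31 members had such a probe set and 29 passed the filter on dim genes (Nqo1 and Osgin1 did not). All 33 passed on the MoGene-1_1-st-v1 arrays. On the MoGene-2_1-st arrays 30 had one and all 30 passed, without Tkt, Ftl1 and Prdx1.

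The samples were cortical neurons cultured from C57BL6 mouse embryos of embryonic day 13 to 15, kept 7 days in vitro and then given drug or vehicle for 24 or 72 h. The tested groups were Top1 shRNA and Top2b shRNA from lentivirus (3 arrays each, against 3 of control shRNA), topotecan at 1 µM (6 arrays, against 6 of vehicle), irinotecan at 10 µM (3), topotecan for 24 h (1) and topotecan for 24 h with washout (1), the last 3 groups against 2 shared vehicle arrays. The others were topotecan at 300 nM (3 arrays against 3), ICRF-193 at 3 µM (3 against 3), a topotecan dose series from 3 to 1000 nM (7 arrays, against 3 of vehicle), the oxidants hydrogen peroxide (100 µM, 1 array) and paraquat (10 µM, 1 array) against 2 shared vehicle arrays, and DRB at 100 µM (1 against 1). Topotecan and irinotecan are camptothecin derivatives that trap topoisomerase I on DNA, ICRF-193 inhibits topoisomerase II, DRB blocks transcription elongation, and paraquat is a herbicide that cycles electrons to oxygen. The labels give the number of hours for the 24 h arrays alone, and do not say whether replicates came from separate cultures, so that p-values measure the spread between these arrays. In bulk RNA fewer cells of a type and less RNA per cell cannot be told apart.

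NRF2, encoded by Nfe2l2, is a transcription factor that is held low in unstressed cells because KEAP1 presents it to a CUL3 ubiquitin ligase. Oxidants and electrophiles modify KEAP1, NRF2 accumulates, pairs with small MAF proteins and binds antioxidant response elements (AREs) near genes such as Hmox1, Nqo1, Gclm, Srxn1 and Txnrd1. In the brain this programme is known to be stronger in astrocytes than in neurons.

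Values below are log2 of the deposited intensity of a gene's brightest single-symbol probe set, and changes are differences of them. A member was called higher or lower at an adjusted p under 0.05, from limma with Benjamini-Hochberg adjustment over all genes kept on the array type. Probe sets of Fth1, Txn1, Gpx4, Gstm1 and Gstp1 may also bind close relatives or pseudogene copies, and their values are uncertain to that extent. Pan-neuronal markers averaged a log2 intensity of 8.92 (the lowest array labelled Top1 shRNA) or more on every array, and markers of astrocytes, fibroblasts and dividing cells were also read. Arrays of 1 type came in sets of different overall level, so each comparison stayed within its set, and for the knockdowns the set entered the fit.

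**Figure D1:**
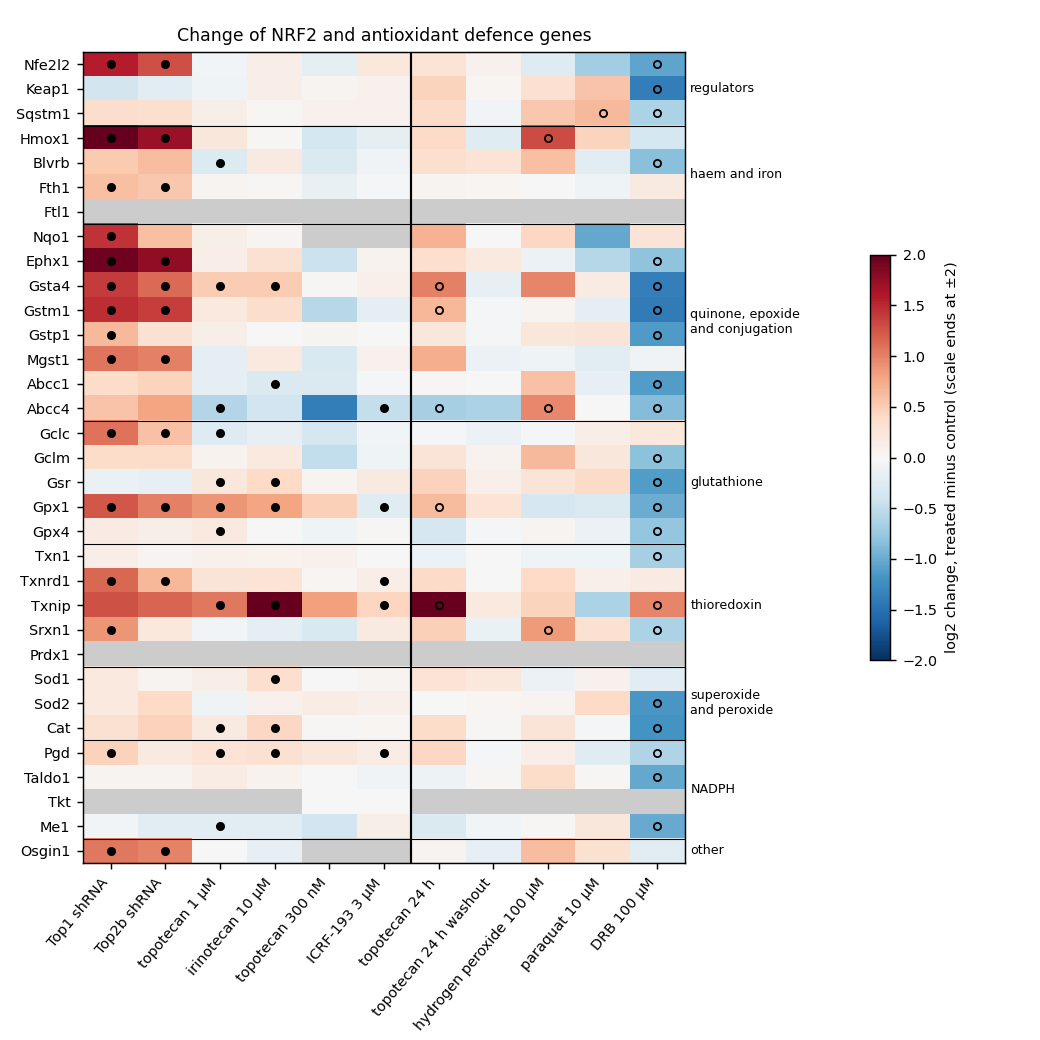
Log2 change of each member (rows, grouped by role) in each comparison (columns), as colour, red for higher and blue for lower than the control. Filled dots mark members called at an adjusted p under 0.05 and open dots, right of the line, members at least 1.5-fold from every control array where there was 1 treated array. Grey cells had no value. Both knockdowns have filled dots on red cells only, and DRB has open dots on 21 blue cells and 1 red cell.

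In both knockdowns members were higher and, in the fit over all 9 arrays, none lower. On the arrays labelled Top1 shRNA 15 of 30 members were higher and 0 lower, where 13.6% of all genes tested were called higher and 14.8% lower (28.4% in either direction). On those labelled Top2b shRNA 11 of 30 were higher and 0 lower, where 7.7% of all genes were called higher and 7.19% lower (14.9% in either direction). The knockdown and control arrays did not overlap for 17 members with Top1 shRNA, against 30% of all genes, and for 14 with Top2b shRNA, against 28.1%. The median change of the members was 0.58 with Top1 shRNA and 0.50 with Top2b shRNA, against -0.02 and -0.04 over all genes. The 2 comparisons share their control arrays. In simulated data with the spread of these arrays, the Top1 shRNA test recovered 12% of changes of 0.5 and 73% of changes of 1. The Top2b shRNA test recovered 39% and 78%. Smaller changes that did not pass below were thus often not detectable.

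The targeted genes themselves did not pass the test. Top1 read 7.62, 8.39 and 8.29 on the Top1 shRNA arrays and 8.98, 8.46 and 8.55 on the control arrays, a change of -0.57 ± 0.24 (SE, adjusted p = 0.106). Top2b read 8.62, 6.87 and 6.80 on the Top2b shRNA arrays and 9.30, 8.39 and 8.17 on the control arrays (-1.19 ± 0.38, adjusted p = 0.0657). Replicates are listed in number order, so the first value of each group comes from the array set of replicate 1, and within each set the targeted gene was lower on every array labelled for it than on the control arrays. For Top1 that difference was small outside the set of replicate 1. In the set of replicate 1 Top2b was lower still on the Top1 shRNA array (8.25) than on the Top2b shRNA array (8.62). There the fall of Top2b was not particular to its own shRNA.

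Among the regulators, Nfe2l2 read 10.52, 10.62 and 10.79 with Top1 shRNA, 10.24, 10.47 and 10.38 with Top2b shRNA and 8.86, 9.23 and 9.14 with control shRNA. All 6 knockdown arrays lay above all 3 control arrays, by 1.57 ± 0.14 for Top1 shRNA (2.96-fold, adjusted p = 0.000295) and 1.29 ± 0.14 for Top2b shRNA (2.44-fold, adjusted p = 0.00146). Keap1, which encodes the protein that presents NRF2 for degradation, read 6.70, 6.31 and 6.39 with Top1 shRNA, 6.66, 6.54 and 6.66 with Top2b shRNA and 6.48, 7.00 and 7.02 with control shRNA. Its groups overlapped and its change passed neither test (-0.37 ± 0.19 and -0.21 ± 0.19), but replicate 1 ran against the others: without control replicate 1 Keap1 was lower with Top1 shRNA (-0.62, adjusted p = 0.0176 in limma), and without Top1 shRNA replicate 1 likewise (-0.57, adjusted p = 0.0451). Sqstm1, an autophagy receptor that binds KEAP1, changed by 0.35 and 0.32 without passing.

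In haem and iron handling, Hmox1, which opens the haem ring and frees iron, had the largest change of any member with Top1 shRNA. It read 9.55, 9.33 and 9.85 on the Top1 shRNA arrays, 9.41, 8.79 and 8.61 on the Top2b shRNA arrays and 7.65, 6.92 and 7.05 on the control arrays. The rise was 2.37 ± 0.21 with Top1 shRNA (5.17-fold, adjusted p = 0.000299) and 1.73 ± 0.21 with Top2b shRNA (3.32-fold, adjusted p = 0.00231). Fth1, the ferritin heavy chain, rose by 0.60 and 0.54, with 12.34, 12.35 and 12.36 on Top1 shRNA arrays, 12.32, 12.26 and 12.30 on Top2b shRNA arrays and 11.71, 11.80 and 11.75 on control arrays. The Fth1 rise with Top1 shRNA did not pass without control replicate 3 (adjusted p = 0.0503 in limma) or without the array set term (0.0588). With Top2b shRNA it did not pass after new quantile normalization (0.39, adjusted p = 0.0786). Blvrb, a biliverdin and flavin reductase, passed neither test (0.52 and 0.61).

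Among the detoxifying enzymes, Ephx1, the microsomal epoxide hydrolase, read 10.43, 10.88 and 11.01 with Top1 shRNA, 10.40, 10.77 and 10.59 with Top2b shRNA and 7.99, 9.30 and 9.17 with control shRNA. It rose by 1.95 ± 0.21 and 1.77 ± 0.21 (adjusted p = 0.000575 and 0.00209). The replicate 1 control array was the lowest, so that the Ephx1 difference was larger in that array set. Gstm1, a cytosolic glutathione transferase, read 7.94, 8.21 and 8.11 with Top1 shRNA, 8.39, 7.99 and 7.59 with Top2b shRNA and 6.78, 6.41 and 6.64 with control shRNA (1.47 ± 0.20 and 1.38 ± 0.20, adjusted p = 0.00158 and 0.00468). Gsta4, the transferase that conjugates the lipid aldehyde hydroxynonenal, read 9.19, 9.18 and 9.25 with Top1 shRNA, 9.40, 8.70 and 8.71 with Top2b shRNA and 7.92, 7.67 and 7.83 with control shRNA (1.40 ± 0.18 and 1.13 ± 0.18, adjusted p = 0.00113 and 0.00575). For both transferases no knockdown array overlapped the control arrays. Mgst1, a membrane-bound transferase, rose by 1.07 and 1.01.

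Nqo1, the quinone reductase often read as the NRF2 marker enzyme, was uneven. It read 6.16, 6.06 and 7.73 with Top1 shRNA, 5.40, 6.09 and 5.93 with Top2b shRNA and 5.76, 4.94 and 4.90 with control shRNA. It rose with Top1 shRNA (1.45 ± 0.44, adjusted p = 0.038), where replicate 3 stood highest, and the Top2b shRNA change of 0.60 ± 0.44 did not pass. Without Top1 shRNA replicate 3 the Nqo1 change was 0.89 and did not pass (adjusted p = 0.0923 in limma), nor did it without control replicate 2 (0.124) or 3 (0.13), without Top2b shRNA replicate 2 (0.0563) or 3 (0.0559), or without the array set term (0.0596). Gstp1 rose by 0.65 with Top1 shRNA (not passing without control replicate 2, adjusted p = 0.0592), and its Top2b shRNA change of 0.30 did not pass. The exporters Abcc1 and Abcc4, which carry glutathione conjugates and other anions out of cells, changed by 0.36 and 0.57 with Top1 shRNA and by 0.45 and 0.79 with Top2b shRNA, none past the threshold.

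Of the genes that make and use glutathione, Gclc, the catalytic subunit of glutamate-cysteine ligase, rose with both (1.09 ± 0.15, adjusted p = 0.00145, and 0.58 ± 0.15, adjusted p = 0.0303), the Gclc rise with Top2b shRNA not passing with the replicate number as a block (adjusted p = 0.0581). It read 10.14, 10.03 and 9.95 with Top1 shRNA, 9.88, 9.40 and 9.33 with Top2b shRNA and 9.28, 8.75 and 8.83 with control shRNA. Gclm, the modifier subunit of the same enzyme, did not pass with either (0.37 ± 0.27 and 0.36 ± 0.27). It read 8.93, 8.86 and 9.29 with Top1 shRNA, 9.85, 8.63 and 8.57 with Top2b shRNA and 9.20, 8.43 and 8.36 with control shRNA, and the Top1 shRNA array of replicate 1 lay below its control; without that array Gclm passed with Top1 shRNA (0.76, adjusted p = 0.0197 in limma). Gpx1, the cytosolic glutathione peroxidase, rose by 1.24 ± 0.18 and 1.01 ± 0.18 (adjusted p = 0.00186 and 0.00886), with 8.66, 8.90 and 8.44 on Top1 shRNA, 8.69, 8.34 and 8.27 on Top2b shRNA and 7.69, 7.18 and 7.41 on control arrays. Gsr, the glutathione reductase, and Gpx4, the peroxidase of membrane lipids, passed neither test (-0.14 and -0.17 for Gsr, 0.17 and 0.12 for Gpx4).

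In the thioredoxin system, Txnrd1, the cytosolic thioredoxin reductase, rose by 1.15 ± 0.19 and 0.66 ± 0.19 (adjusted p = 0.00346 and 0.0475). It read 9.49, 9.94 and 9.54 with Top1 shRNA, 9.17, 9.23 and 9.09 with Top2b shRNA and 8.82, 8.35 and 8.34 with control shRNA, 3 groups that did not overlap. Srxn1, which repairs over-oxidised peroxiredoxins, rose with Top1 shRNA (0.89 ± 0.25, adjusted p = 0.0267). Without Top1 shRNA replicate 3 the Srxn1 change was 0.62 and did not pass (adjusted p = 0.0792 in limma), nor did it without control replicate 1 (0.0696), 2 (0.0647) or 3 (0.081), or without the array set term (0.0987). The Srxn1 change with Top2b shRNA (0.21 ± 0.25) did not pass. Its values were 8.05, 7.47 and 8.26 with Top1 shRNA, 7.87, 7.13 and 6.74 with Top2b shRNA and 7.25, 6.98 and 6.88 with control shRNA. Txnip, the thioredoxin-binding arrestin that also restrains glucose uptake, scattered more than any other member, with 7.87, 10.02 and 9.08, then 10.33, 8.33 and 7.98, against 6.98, 8.11 and 8.08 in the same order of groups, and passed neither test (1.27 ± 0.69 and 1.16 ± 0.69). Without Top2b shRNA replicate 1, its highest array, the Txnip rise with Top1 shRNA passed (1.27, adjusted p = 0.00891 in limma). Txn1, thioredoxin itself, changed by 0.14 and 0.06 without passing.

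Of the remaining members, Osgin1, a stress-induced growth inhibitor, rose by 1.06 and 0.99. Pgd, the phosphogluconate dehydrogenase of the pentose phosphate pathway, rose by 0.46 with Top1 shRNA (adjusted p = 0.0385 in limma, not passing without any 1 of the arrays other than Top2b shRNA replicate 1), and its Top2b shRNA change of 0.18 did not pass. Taldo1 (0.05 and 0.06) and Me1 (-0.05 and -0.21), other sources of pentose phosphates and NADPH, and the superoxide dismutases Sod1 (0.20 and 0.05) and Sod2 (0.20 and 0.40) and catalase, Cat (0.30 and 0.46), passed neither test.

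The direct difference between the knockdowns passed for 0 of 30 members and for 0% of all genes. In simulated data this test recovered 33% of differences of 0.5 and 66% of differences of 1. At an unadjusted p under 0.05 there were 4 of 30 members, as there were 14.4% of all genes, and none of the 4 passed after adjustment. For Hmox1 Top1 shRNA exceeded Top2b shRNA by 0.64, with a 95% confidence interval of 0.16 to 1.12 before adjustment (adjusted p = 0.238 in limma), for Gclc by 0.50 (0.17 to 0.83, adjusted p = 0.198), for Srxn1 by 0.68 (0.12 to 1.24, adjusted p = 0.269) and for Txnrd1 by 0.49 (0.06 to 0.92, adjusted p = 0.296). For Nfe2l2 the difference was 0.28 (-0.03 to 0.59) and for Gstm1 0.09 (-0.36 to 0.55). Without the Top1 shRNA array of replicate 1 the difference passed for Hmox1 (0.88, adjusted p = 0.0436 in limma) and Gclc (0.62, adjusted p = 0.0479), 2 of 30 members, where 5.48% of all genes did.

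**Figure D2:**
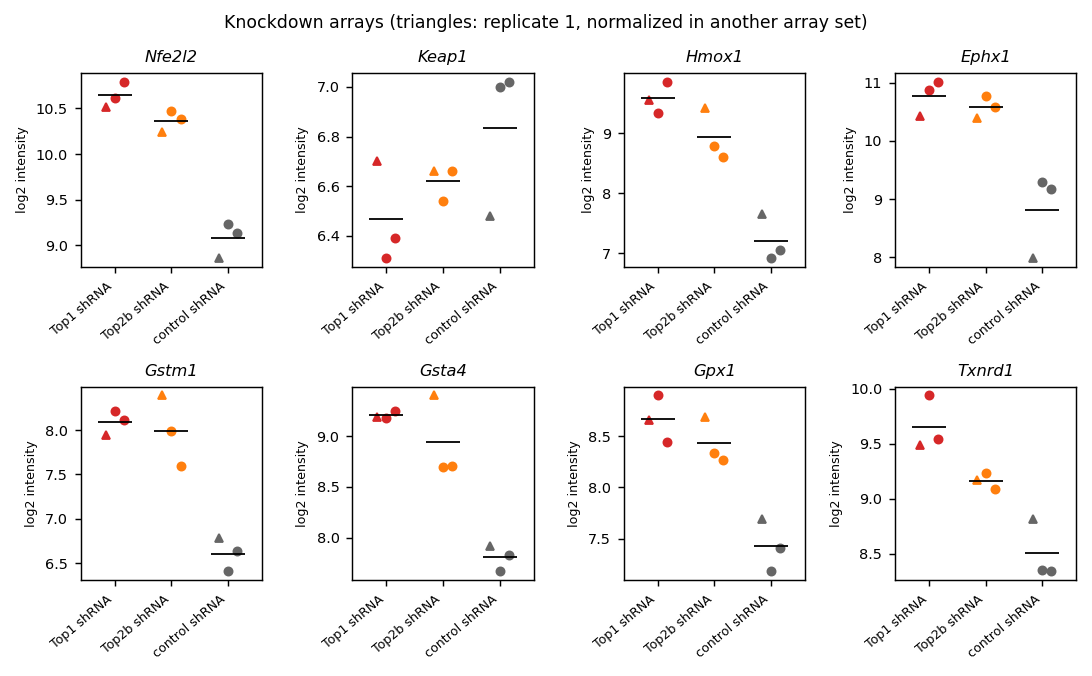
Log2 intensity of 8 members on each knockdown array, Top1 shRNA and Top2b shRNA left of control shRNA, with the mean of a group as a bar. Triangles are replicate 1, whose arrays had a higher mean intensity (177.6 to 180.3, against 137.8 to 143.1) and were taken from this as another array set. For Nfe2l2, Hmox1, Ephx1, Gstm1, Gsta4, Gpx1 and Txnrd1 every knockdown array lies above every control array, and for Keap1 the groups overlap.

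Cell type markers moved with both knockdowns, and their part in these results was not tested. With Top1 shRNA 11 of 13 fibroblast and meningeal markers were higher (mean log2 intensity 8.38 to 8.93, against 6.76 to 7.49 on control arrays), 5 of 9 proliferation markers were higher (6.43 to 7.49), and 9 of 9 excitatory neuron markers and 6 of 10 pan-neuronal markers were lower (pan-neuronal mean 8.92 to 9.69 against 10.21 to 10.44). With Top2b shRNA 8 of 13 fibroblast and meningeal markers were higher (8.10 to 8.64), 0 of 9 proliferation markers passed the test (mean 5.80 to 7.72, against 5.74 to 5.90 on control arrays), and 3 of 9 excitatory and 1 of 10 pan-neuronal markers were lower. Astrocyte markers were higher for 4 and lower for 1 of 15 with Top1 shRNA, and higher for 3 of 15 with Top2b shRNA (means 7.45 to 8.12 and 7.41 to 8.91, against 7.31 to 7.48). With the replicate number as a block 8 of 30 members rose with Top2b shRNA, where 5.58% of all genes were higher and 4.58% lower. Gclc, Txnrd1 (adjusted p = 0.0711) and Fth1 (adjusted p = 0.0546 in limma) no longer passed with that block. Leaving out control replicate 2 (5.52% of all genes called), Top2b shRNA replicate 1 (7.9%) or Top2b shRNA replicate 2 (3.92%) left 7 called and leaving out control replicate 3 (4.41%) left 6. The Mgst1 rise with Top2b shRNA did not pass without control replicate 2 or 3, the Osgin1 rise without control replicate 3 or Top2b shRNA replicate 1 or 2, and the Gclc, Txnrd1 and Fth1 rises without control replicate 2 or 3 or any 1 of the Top2b shRNA arrays.

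Among other genes of the same pathways, 24 of 65 tested passed with Top1 shRNA (17 higher, 7 lower), where 28.4% of all genes did. With Top2b shRNA 15 of 65 passed (10 higher, 5 lower), where 14.9% of all genes did. The largest rises with Top1 shRNA were Gstm7 (1.61), Gpx8 (1.52), Cp, the ferroxidase ceruloplasmin (1.51), and Mt3, a brain metallothionein (1.48). The small MAF partners Maff (1.04) and Mafk (1.16) rose with Top1 shRNA, while Mafg fell by 0.63 with Top2b shRNA. The largest falls with Top1 shRNA were Mgst3 (-1.28), Msra (-1.09), Chac2 (-1.08) and Ggct (-0.87), and Hmox2, the constitutive haem oxygenase, fell by 0.83. With Top2b shRNA the largest rises were Gstm2 (1.93), Mt3 (1.48), Mt1 (1.38) and Aox1 (1.34), and the largest falls Mgst3 (-1.36), Chac2 (-1.10), Hmox2 (-0.84) and, as for Mafg, Trim16 (-0.63).

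Promoter windows are shown because many members rose together in the knockdowns. RefSeq windows on GRCm38.p6, 300 bases long around an annotated start, matched 29 of the 35 members in 41 windows, and were searched on both strands for the ARE core TGACNNNGC. The core was in at least 1 window of 11 of 29 members and of 14% of all genes. Of the members that rose with Top1 shRNA, 5 of the 12 with a window held it, against 4 of the 13 that did not pass. Of those that rose with Top2b shRNA 3 of 8 held it, against 6 of 17. The core followed by an A was in windows of 2 members, Pgd and Txnrd1, and of 3.45% of all genes. The AP-1 motif TGACTCA, which can overlap the core, was in windows of 5 members and of 5.95% of all genes, and in those of Prdx1 and Me1 it overlapped it. These are matches of letters and say nothing of binding. The windows below are read 5′ to 3′ on the gene's strand. They belong to members that rose with Top1 shRNA, and to Txnip, whose change did not pass the test. Each core is in capitals (and the A of the longer motif, read as T on the other strand, included where present). Ephx1 and Txnip have no match in this window. The windows shown do not stand for all members that rose with Top1 shRNA. Pgd, which has a core, is not shown. Fth1, Gpx1, Gstm1, Gstp1, Nqo1 and Osgin1 also rose, have no core in any window and are not shown. Hmox1, Gclc and Gsta4, which rose too, had no window to search. Gclm, Me1, Abcc4 and Sod1, whose changes with Top1 shRNA did not pass, have a core and are not shown.
Nfe2l2, GRCm38.p6 chr2:75704614-75704913, minus strand: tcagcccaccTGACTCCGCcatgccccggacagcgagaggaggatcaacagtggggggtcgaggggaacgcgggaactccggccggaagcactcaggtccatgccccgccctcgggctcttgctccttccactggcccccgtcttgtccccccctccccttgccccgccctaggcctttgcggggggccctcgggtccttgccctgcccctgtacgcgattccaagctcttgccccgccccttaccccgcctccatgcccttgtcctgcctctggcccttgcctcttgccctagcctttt
Srxn1, GRCm38.p6 chr2:152105274-152105573, plus strand: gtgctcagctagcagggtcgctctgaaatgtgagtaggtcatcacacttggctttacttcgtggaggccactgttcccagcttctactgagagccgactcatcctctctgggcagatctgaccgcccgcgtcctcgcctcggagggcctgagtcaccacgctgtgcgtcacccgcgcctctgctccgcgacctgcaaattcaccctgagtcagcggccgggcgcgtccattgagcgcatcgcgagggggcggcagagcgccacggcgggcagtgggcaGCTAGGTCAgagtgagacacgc
Txnrd1, GRCm38.p6 chr10:82858956-82859255, plus strand: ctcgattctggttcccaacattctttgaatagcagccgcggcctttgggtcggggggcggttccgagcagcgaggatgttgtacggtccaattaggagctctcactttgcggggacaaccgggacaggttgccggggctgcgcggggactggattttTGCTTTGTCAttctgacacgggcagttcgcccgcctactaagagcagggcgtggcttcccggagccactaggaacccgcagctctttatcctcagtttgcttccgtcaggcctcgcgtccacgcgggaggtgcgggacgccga
Mgst1, GRCm38.p6 chr6:138140277-138140576, plus strand: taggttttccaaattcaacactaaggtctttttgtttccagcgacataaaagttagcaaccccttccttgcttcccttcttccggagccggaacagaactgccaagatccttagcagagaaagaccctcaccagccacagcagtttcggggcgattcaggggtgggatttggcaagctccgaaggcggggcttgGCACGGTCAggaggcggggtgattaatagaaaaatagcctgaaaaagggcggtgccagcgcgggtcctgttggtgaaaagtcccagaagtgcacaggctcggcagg
Ephx1, GRCm38.p6 chr1:181017520-181017819, minus strand: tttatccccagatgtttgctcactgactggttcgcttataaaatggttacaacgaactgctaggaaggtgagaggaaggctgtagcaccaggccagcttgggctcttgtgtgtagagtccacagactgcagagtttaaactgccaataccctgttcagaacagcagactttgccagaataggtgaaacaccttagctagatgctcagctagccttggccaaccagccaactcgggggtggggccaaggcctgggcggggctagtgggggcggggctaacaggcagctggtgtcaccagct
Txnip, GRCm38.p6 chr3:96557707-96558006, plus strand: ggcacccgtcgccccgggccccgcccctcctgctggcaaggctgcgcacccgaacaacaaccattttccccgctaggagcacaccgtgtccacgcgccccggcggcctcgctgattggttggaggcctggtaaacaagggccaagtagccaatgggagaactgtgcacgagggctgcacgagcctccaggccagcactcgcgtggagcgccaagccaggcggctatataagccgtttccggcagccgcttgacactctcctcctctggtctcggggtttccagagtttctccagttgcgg

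With topotecan at 1 µM 7 of 30 members rose and 4 fell. Over all genes 18.3% were called higher and 20.8% lower (39.1% in either direction), so that the members' share was near the background. The members' median change was 0.11, against -0.01 over all genes. The arrays of the 2 groups did not overlap for 5 members, against 19.1% of all genes.

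Txnip rose most. It ranged from 10.31 to 10.76 on the 6 topotecan arrays (median 10.64) and from 9.15 to 10.16 on the 6 vehicle arrays (median 9.50), with no overlap, a rise of 1.06 ± 0.14 (2.09-fold, adjusted p = 5.76e-05). Gpx1 ranged from 8.71 to 9.25 (median 9.06) with topotecan and from 8.00 to 8.47 (median 8.08) with vehicle, also without overlap (0.88 ± 0.10, adjusted p = 8.09e-06). Gsta4 ranged from 8.69 to 9.08 (median 8.91) with topotecan and from 8.13 to 8.78 (median 8.44) with vehicle, where only vehicle replicate 4 overlapped the treated arrays (0.50 ± 0.11, adjusted p = 0.00226). Pgd ranged from 9.69 to 9.99 (median 9.86) with topotecan and from 9.45 to 9.78 (median 9.57) with vehicle (0.27 ± 0.07, adjusted p = 0.00652). Gsr (0.23), Gpx4 (0.20) and Cat (0.18), the other enzymes of glutathione and peroxide handling that passed, rose by less. Cat no longer passed without topotecan replicate 1, 3 or 6 or vehicle replicate 3, 5 or 6 (adjusted p from 0.0526 to 0.0654 in limma).

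The falls were led by Abcc4, which ranged from 5.53 to 5.83 (median 5.67) with topotecan and from 5.89 to 6.63 (median 6.32) with vehicle, without overlap (-0.59 ± 0.11, adjusted p = 0.000725). Blvrb ranged from 6.18 to 6.35 (median 6.27) with topotecan and from 6.31 to 6.73 (median 6.60) with vehicle (-0.28 ± 0.07, adjusted p = 0.00616). Gclc, which was higher with Top1 shRNA, fell by 0.26 ± 0.05 here (adjusted p = 0.00123): its 6 topotecan arrays, from 8.99 to 9.21, all lay below its 6 vehicle arrays, from 9.30 to 9.42. Me1 fell by 0.23 (adjusted p = 0.0135). Abcc4 and Me1 are 2 of the 3 members with annotated genes over 100 kb, and the third, Abcc1, changed by -0.18 (adjusted p = 0.0595). Of all genes over 100 kb 64.4% were called lower, against 13.2% of shorter ones.

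The genes most often read as NRF2 targets did not pass. Hmox1 ranged from 8.93 to 9.54 with topotecan and from 8.60 to 9.60 with vehicle (0.23, adjusted p = 0.259), Nqo1 changed by 0.12, Gclm by 0.07, Srxn1 by -0.05 and Txnrd1 by 0.25 (adjusted p = 0.0564). The 95% intervals before adjustment ran from -0.10 to 0.55 for Hmox1, from -0.07 to 0.20 for Gclm and from -0.30 to 0.19 for Srxn1. Nfe2l2 (-0.06, from -0.29 to 0.16) and Keap1 (-0.09, from -0.20 to 0.01) did not pass either. Without vehicle replicate 4, the highest vehicle array for Txnip, Hmox1 and Nfe2l2, 14 of 30 members were called, where 44.3% of all genes were, adding Txnrd1 (0.33, adjusted p = 0.00201), Gstm1 (0.24) and Ephx1 (0.19). In these cultures 10 of 15 astrocyte markers were lower with topotecan (mean 7.22 to 7.29, against 7.86 to 8.00 with vehicle) and 2 higher, and 8 of 10 pan-neuronal markers were lower; their part in these results was not tested.

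Other pathway genes passed in 26 of 65 cases (17 higher, 9 lower), where 39.1% of all genes did, so that their share was near the background. The largest rises were Trim16 (1.14), Cp (0.95), Gstm7 (0.92) and Maff (0.59), and glutathione synthetase, Gss, rose by 0.53. The largest falls were Slc7a11, the cystine importer that feeds glutathione synthesis (-1.47, with 5.14 to 6.23 on topotecan arrays against 6.49 to 7.56 on vehicle arrays), Msra, a methionine sulfoxide reductase (-0.90), Bach2 (-0.73) and Sod3, the extracellular superoxide dismutase (-0.70).

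**Figure D3:**
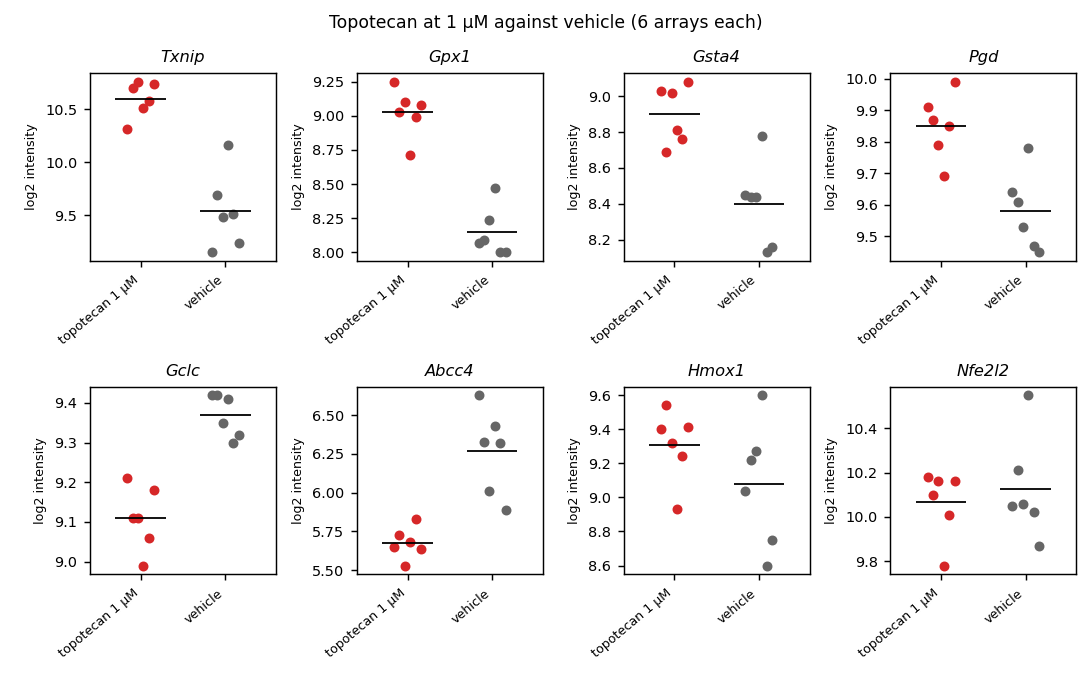
Log2 intensity of 8 members on each of 6 topotecan (1 µM) and 6 vehicle arrays, with group means as bars. Txnip and Gpx1 are higher and Gclc and Abcc4 lower on every topotecan array than on every vehicle array, and Hmox1 and Nfe2l2 overlap.

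Irinotecan at 10 µM raised 7 of 30 members and lowered 1, where 16.5% of all genes were called higher and 11.7% lower (28.2% in either direction). Txnip read 9.49, 8.96 and 8.96 with irinotecan and 7.27 and 6.79 with vehicle, a rise of 2.11 ± 0.20 (4.3-fold, adjusted p = 0.000498). Gpx1 read 7.71, 7.57 and 7.63 with irinotecan and 6.82 and 6.88 with vehicle (0.79 ± 0.08, adjusted p = 0.000596). Neither overlapped.

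Gsta4 read 7.73, 7.46 and 7.78 with irinotecan and 7.05 and 7.26 with vehicle (0.50 ± 0.12, adjusted p = 0.0205). Its rise did not pass without irinotecan replicate 1 (adjusted p = 0.055 in limma) or 3 (0.0604). Nor did it pass without the filter on dim genes (0.0604) or with the replicate number as a block (0.067). Catalase, Cat, read 10.44, 10.24 and 10.38 with irinotecan and 9.89 and 10.00 with vehicle (0.41 ± 0.09, adjusted p = 0.0149). Gsr read 7.62, 7.64 and 7.56 with irinotecan and 7.13 and 7.28 with vehicle (0.40 ± 0.08, adjusted p = 0.011). In all 3 the irinotecan arrays lay above both vehicle arrays. Sod1, the cytosolic superoxide dismutase, read 11.21, 11.35 and 11.38 with irinotecan and 10.99 and 10.98 with vehicle (0.33, adjusted p = 0.0253), and Pgd rose by 0.30 (adjusted p = 0.0297). Abcc1, over 100 kb long, was the member that fell (-0.29, adjusted p = 0.0254). Abcc1 no longer passed in limma when any of the 5 arrays was left out, and neither Pgd nor Sod1 did when any but irinotecan replicate 1 was.

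Hmox1 (0.03), Nqo1 (0.06), Gclm (0.20), Srxn1 (-0.19), Txnrd1 (0.28), Nfe2l2 (0.14) and Keap1 (0.13) did not pass with irinotecan. Nqo1 read 4.37 to 4.84 on the irinotecan and vehicle arrays. That is below 5.01, the average that the filter on dim genes required over all arrays of this type, so a change could be hidden. The calls rested on single arrays: without vehicle replicate 1, 2 members were called (Txnip and Gpx1), where 13.4% of all genes were, and 5 were without vehicle replicate 2 (15% of all genes), irinotecan replicate 2 (19.9%) or irinotecan replicate 3 (19.8%). Groups did not overlap for 16 members, against 57.1% of all genes. In simulated data the irinotecan test recovered 41% of changes of 0.5 and 80% of changes of 1. Of other pathway genes 15 of 65 passed (12 higher, 3 lower), where 28.2% of all genes did. The largest rises were Gstm7 (0.72), Sesn3 (0.62), Gss (0.57) and Bach1, a repressor of Hmox1 (0.55), and the falls were Msra (-1.16), Slc7a11 (-1.10) and Bach2 (-0.74). With irinotecan 4 of 15 astrocyte markers were lower (mean 6.72 to 6.85, against 6.99 to 7.15 with vehicle), and 6 of 9 interneuron markers were lower and 2 higher (7.28 to 7.45, against 7.76 to 7.82). Excitatory neuron markers were higher for 3 and lower for 2 of 9 (8.29 to 8.34, against 8.12 to 8.17), and pan-neuronal markers higher for 1 and lower for 2 of 10 (10.29 to 10.33, against 10.48 to 10.50); the part of these markers in the results was not tested.

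Topotecan for 24 h, at a dose the labels do not give for these arrays, was 1 array and was set without a test against the same vehicle arrays, a member being called where it was at least 1.5-fold from both. There 4 of 30 members were higher and 1 lower, where 3.31% of all genes were higher and 4.55% lower by that rule. Txnip read 9.34 with topotecan and 7.27 and 6.79 with vehicle (4.95-fold). Gsta4 read 8.16 against 7.05 and 7.26, Gstm1 6.62 against 5.97 and 5.94, and Gpx1 7.48 against 6.82 and 6.88. Abcc4 was lower, at 4.93 against 5.66 and 5.54. The topotecan value of Abcc4 and both vehicle values of Nqo1 lie below the limit of the filter on dim genes (5.01), where differences are compressed. Hmox1 (7.18 against 6.80 and 6.78), Nqo1 (5.29 against 4.84 and 4.37), Srxn1 (7.26 against 6.77 and 6.81), Txnrd1 (8.65 against 8.34 and 8.20), Gclm (8.60 against 8.35 and 8.32), Nfe2l2 (8.54 against 8.20 and 8.34) and Keap1 (7.15 against 6.48 and 6.95) were above both vehicle arrays without being 1.5-fold above each. In all, 20 of 30 members lay above both vehicle arrays, as did 53.1% of all genes. Against vehicle replicate 1 alone 6 members were higher and 1 lower, where 5.36% of all genes were higher and 5.76% lower, and against replicate 2 alone 5 were higher and 1 lower, where 5.24% were higher and 5.35% lower.

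The washout array called 0 of 30 members, where 0.173% of all genes were higher and 0.278% lower. Txnip read 7.23 after washout, between the vehicle values of 7.27 and 6.79, and Gsta4 read 6.99, below both. Gpx1 read 7.13 and stayed above both vehicle values, by 0.31 and 0.25. Abcc4 read 4.96, below both by 0.70 and 0.58, and against vehicle replicate 1 alone it was the 1 member called, where 0.917% of all genes were higher and 0.932% lower. Against vehicle replicate 2 alone 0 were called, where 0.624% of all genes were higher and 0.661% lower. Hmox1 read 6.54, Nqo1 4.60, Gclm 8.41, Srxn1 6.65, Txnrd1 8.27, Nfe2l2 8.36 and Keap1 6.76, none of them 1.5-fold from a vehicle array. The washout values of Abcc4 and Nqo1 lie below the limit of the filter on dim genes (5.01).

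**Figure D4:**
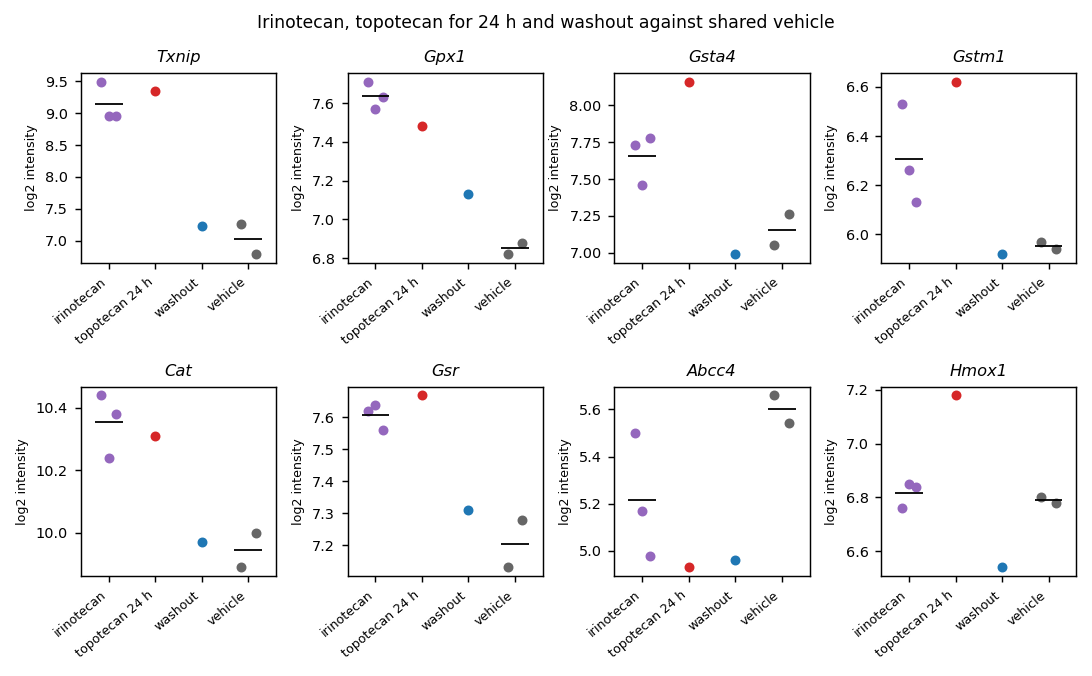
Log2 intensity of 8 members on the irinotecan arrays (3), the 24 h topotecan array, the washout array and their 2 shared vehicle arrays, with means as bars where a group has more than 1 array. Txnip, Gpx1, Gsta4, Cat and Gsr are higher with both drugs than with vehicle, and the washout array lies at the vehicle level for Txnip and Cat but below it for Abcc4.

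Topotecan at 300 nM changed 0 of 29 members in limma at an adjusted p under 0.05 (4 at an unadjusted p under 0.05, as were 21.6% of all genes), where 4.4% of all genes were called (1.3% higher, 3.1% lower). Hmox1 read 8.79, 9.87 and 10.93 with topotecan and 10.71, 10.98 and 8.96 with vehicle, so that the groups overlapped. Txnip read 12.35, 12.25 and 12.73 with topotecan and 12.93, 11.88 and 10.07 with vehicle (0.82 ± 0.64). Abcc4 came nearest to the threshold, with 7.42, 7.17 and 6.34 against 8.84, 8.04 and 8.19 and no overlap (-1.38 ± 0.32, adjusted p = 0.0595). Gpx1 read 12.62, 12.64 and 12.66 with topotecan and 12.45, 12.06 and 11.97 with vehicle (0.48 ± 0.15, adjusted p = 0.119); without vehicle replicate 1 it passed (0.62, adjusted p = 0.0383). Gclm (-0.50), Srxn1 (-0.30), Txnrd1 (0.04), Nfe2l2 (-0.19) and Keap1 (0.06) did not pass, and Nqo1 was too dim to test. In simulated data with this experiment's spread, the test recovered 49% of changes of 1 and 2% of changes of 0.5 on the log2 scale, so changes of the size seen elsewhere were often not detectable here. With topotecan 5 of 16 astrocyte markers were lower (mean 9.62 to 9.90, against 10.53 to 10.66 with vehicle); their part was not tested. Of other pathway genes 5 of 65 passed: Chac2 (0.77) and Msrb2 (0.74) were higher, and Selenop (-1.56), Bach2 (-1.48) and Msra (-1.25) lower.

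In the dose series 0 of 33 members had a slope over dose that passed in limma (3 at an unadjusted p under 0.05, as were 19.1% of all genes), where 3.45% of all genes did. The vehicle arrays did not agree among themselves. Nfe2l2 read 10.96, 10.90 and 9.10 on the vehicle arrays, then 9.35 at 3 nM, 9.00 at 30 nM, 8.89 at 150 nM, 8.87 and 8.99 at 300 nM, 8.90 at 500 nM and 10.61 at 1000 nM. Txnip followed the same arrays, with 8.70, 8.73 and 6.92 on vehicle, 6.93 to 7.52 from 3 to 500 nM and 8.89 at 1000 nM. Ephx1, Gstm1, Gsta4 and Mgst1 likewise were high on vehicle replicates 1 and 2 and at 1000 nM, and Nqo1 was low there (6.30, 6.48 and 7.30, against 8.08 to 8.38 on the other 7 arrays). Proliferation markers spread likewise over the vehicle arrays (mean log2 intensity 6.42 to 9.10) and read 7.79 at 1000 nM and 6.40 at 500 nM; their part was not tested.

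Over the 7 arrays without those 3, a choice made after seeing the data, 4 of 33 members had a slope that passed, where 9.98% of all genes did. The members' share was thus near that of all genes. Per dose step Gpx1 rose by 0.08 and Sod1 by 0.05, and Abcc4 fell by 0.09 and Hmox1 by 0.06. These slopes rest on 1 vehicle array and on arrays picked from the same values, so they describe and do not test. Over all 10 arrays none of the 4 passed in limma (adjusted p = 0.35 for Gpx1, 0.497 for Sod1, 0.0877 for Abcc4 and 0.881 for Hmox1). Gpx1 read 9.35 on vehicle replicate 3, 9.28 at 3 nM, 9.34 at 30 nM, 9.45 at 150 nM, 9.58 and 9.59 at 300 nM and 9.72 at 500 nM, and 10.64 at 1000 nM, above every other array. Abcc4 read 7.12 on vehicle replicate 3, 7.01 at 3 nM, 7.03 at 30 nM, 6.89 at 150 nM, 6.68 and 6.91 at 300 nM, 6.64 at 500 nM and 6.95 at 1000 nM. Hmox1 read 9.65 on vehicle replicate 3, 9.68 at 3 nM, 9.51 at 30 nM, 9.44 at 150 nM, 9.42 and 9.43 at 300 nM and 9.41 at 500 nM, then 10.03 at 1000 nM, above every other array. Over all 10 arrays the slopes of Nqo1, Gclm, Srxn1, Txnrd1 and Keap1 did not pass. Of 65 other pathway genes 1 had a slope that passed over the 10 arrays, where 3.45% of all genes did. It was Sesn3, a sestrin (0.09 per step, adjusted p = 0.0114 in limma).

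ICRF-193 at 3 µM, which acts on topoisomerase II, changed 5 of 29 members, 3 higher and 2 lower, where 8.29% of all genes were called higher and 10.3% lower (18.6% in either direction). The changes were small. Abcc4 read 7.62, 7.59 and 7.70 with ICRF-193 and 8.17, 8.10 and 8.06 with vehicle (-0.47 ± 0.05, adjusted p = 0.00103). Txnip read 12.30, 12.38 and 12.42 with ICRF-193 and 11.68, 11.92 and 12.21 with vehicle (0.43 ± 0.12, adjusted p = 0.0403). Gpx1, which was higher in the knockdowns and with topotecan at 1 µM and irinotecan, was lower here, at 11.23, 11.11 and 11.24 against 11.43, 11.37 and 11.54 (-0.25 ± 0.06, adjusted p = 0.0196). Pgd read 10.83, 10.83 and 10.78 with ICRF-193 and 10.68, 10.71 and 10.60 with vehicle (0.15), and Txnrd1 read 10.44, 10.51 and 10.52 with ICRF-193 and 10.37, 10.34 and 10.36 with vehicle (0.13). For all 5 the groups did not overlap, as for 13 of 29 members, against 39.2% of all genes.

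Hmox1 (-0.19), Gclm (-0.08), Srxn1 (0.18), Nfe2l2 (0.21) and Keap1 (0.09) did not pass with ICRF-193. Same-numbered arrays deviated together in this experiment, and with the replicate number as a block 8 of 29 members passed, 6 higher and 2 lower, where 12.7% of all genes were higher and 13.8% lower (26.5% in either direction), adding Srxn1 (adjusted p = 0.0284), Gsr (0.18, adjusted p = 0.0143) and Nfe2l2 (adjusted p = 0.0403 in limma). The count fell to 1 without ICRF-193 replicate 2 (8.11% of all genes) and to 2 without ICRF-193 replicate 3 (8.46%), vehicle replicate 1 (11.1%) or vehicle replicate 2 (11.4%), and was 8 without vehicle replicate 3 (25.9%). The rises were lost most often. Pgd failed without any 1 array, Txnip passed only without vehicle replicate 3 and Txnrd1 only without ICRF-193 replicate 1. None of these rises passed with all probe sets averaged or without the filter on dim genes. Gpx1 failed without ICRF-193 replicate 2, and Abcc4 passed each time. With ICRF-193 12 of 16 astrocyte markers were lower (mean 9.84 to 10.00, against 10.23 to 10.37 with vehicle), and their part was not tested. A second probe set of Sod1 read lower (-0.31, adjusted p = 0.0152) and one of Sod2 higher (0.46, adjusted p = 0.00294), while their brightest probe sets changed by 0.06 and 0.10 without passing. Of other pathway genes 17 of 65 passed (9 higher, 8 lower), where 18.6% of all genes did. The largest changes were rises of Glrx (0.44), Sesn3 (0.33), Msrb2 (0.28) and Aifm2 (0.25) and falls of Mt2 (-0.55), Slc7a11 (-0.53), Bach2 (-0.48) and Mt1 (-0.45).

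The oxidants were 1 array each, and their 2 vehicle arrays differed from each other. Across genes vehicle replicate 1 correlated with vehicle replicate 2 at 0.894 and with the treated arrays at 0.911 and 0.878, while vehicle replicate 2 correlated with them at 0.972 and 0.979, a description over 13308 genes measured on the same array type. Pan-neuronal markers averaged 9.79 and fibroblast and meningeal markers 9.21 on vehicle replicate 1, against 10.94 and 7.91 on replicate 2. On the hydrogen peroxide array pan-neuronal markers averaged 10.61, fibroblast and meningeal markers 7.99, proliferation markers 6.06 and astrocyte markers 7.46. On the paraquat array the same lists averaged 10.93, 8.05, 6.74 and 7.99, and on the vehicle arrays proliferation markers averaged 8.15 and 6.88 and astrocyte markers 7.82 and 7.87; the part of these markers in the results was not tested. Each oxidant value is therefore given against each vehicle array.

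Hydrogen peroxide called 3 of 30 members higher and 0 lower, where 2.28% of all genes were at least 1.5-fold above both vehicle arrays and 1.32% below both. Hmox1 read 10.51 with hydrogen peroxide and 9.51 and 8.89 on vehicle replicates 1 and 2, higher by 1.00 and 1.62. Srxn1 read 9.16 against 8.41 and 8.20, and Abcc4 7.28 against 6.34 and 6.30. Gclm, at 10.20, was above both vehicle arrays (9.73 and 9.35), by 0.46 and 0.84, and Txnrd1, at 10.15, by 0.07 and 0.74 (10.08 and 9.41), neither reaching 1.5-fold against replicate 1. Against vehicle replicate 2 alone 10 members were higher and 0 lower, where 5.46% of all genes were higher and 5.47% lower. Nqo1 read 7.54, 1.25 above vehicle replicate 2 (6.29) and 0.42 below replicate 1 (7.96). Nfe2l2 likewise lay between them, at 10.07 with hydrogen peroxide against 11.03 and 9.61. Txnip read 9.85 against 9.57 and 9.26, and Keap1 6.93 against 6.27 and 7.00. Against vehicle replicate 1 alone 5 were higher and 2 lower, where 21.5% of all genes were higher and 12.5% lower. Of 65 other pathway genes 2 were called, both higher: Slc7a11 (8.61 against 7.90 and 6.86) and Sesn2 (9.76 against 8.88 and 8.01).

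Paraquat called 1 of 30 members, Sqstm1, which read 11.27 against 10.60 and 10.63, higher by 0.66 and 0.64. Of all genes 3.33% were higher by that rule and 1.3% lower. Against vehicle replicate 1 alone 3 members were higher and 7 lower, where 26.8% of all genes were higher and 14.4% lower, and against vehicle replicate 2 alone 3 were higher and 0 lower, where 5.1% of all genes were higher and 2.3% lower. Hmox1 read 9.65 against 9.51 and 8.89, Srxn1 8.61 against 8.41 and 8.20, and Gclm 9.77 against 9.73 and 9.35, each above both vehicle arrays without being 1.5-fold above each. Nqo1 read 6.10 against 7.96 and 6.29, Txnrd1 9.84 against 10.08 and 9.41, Txnip 8.77 against 9.57 and 9.26, Nfe2l2 9.62 against 11.03 and 9.61, and Keap1 7.20 against 6.27 and 7.00. Of 65 other pathway genes 1 was called, Bach1 (8.82 against 7.81 and 7.86).

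**Figure D5:**
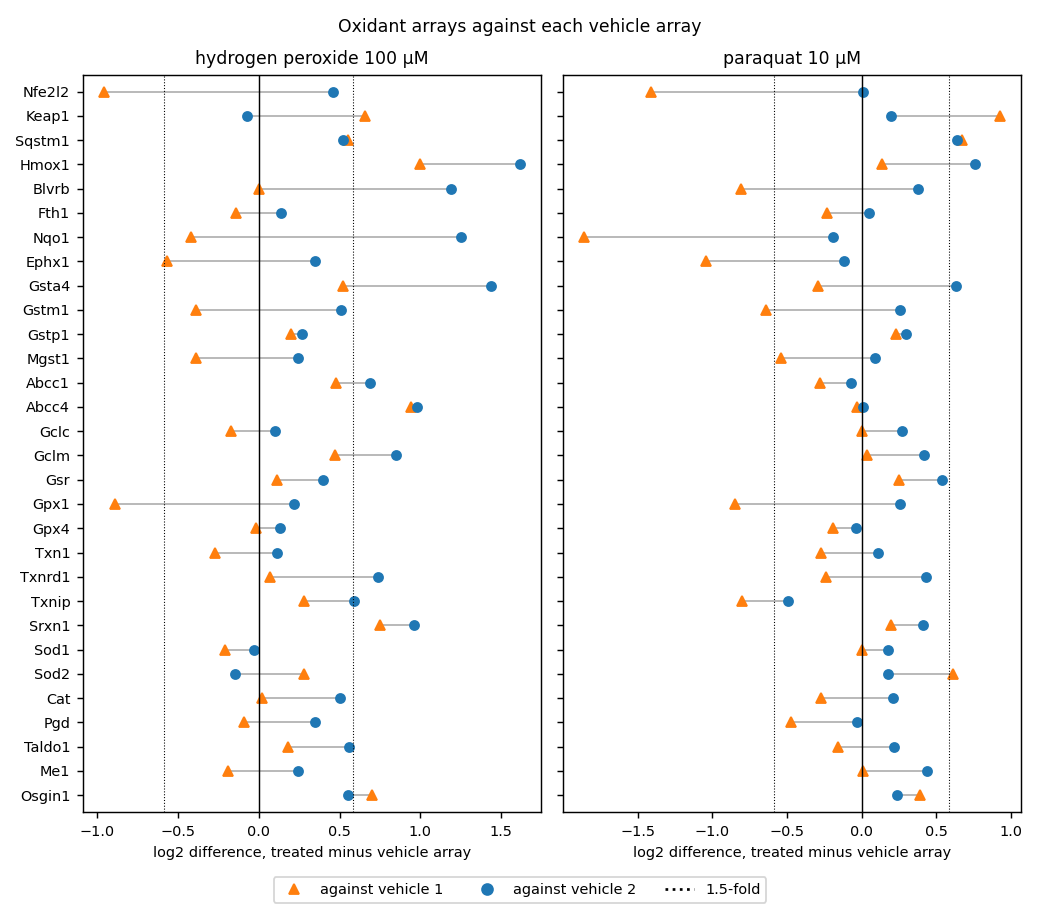
Log2 difference of the hydrogen peroxide array (left) and the paraquat array (right) from vehicle replicate 1 (triangles) and vehicle replicate 2 (circles) for each of 30 members, with dotted lines at 1.5-fold. Hmox1, Srxn1 and Abcc4 pass the upper line on both counts with hydrogen peroxide and Sqstm1 with paraquat, while Nfe2l2 and Nqo1, among others, differ by more than 1 between the vehicle arrays.

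DRB was 1 array against 1 vehicle array, with no check by replicates. It was at least 1.5-fold lower for 21 of 30 members and higher for 1, where 37% of all genes were lower and 12.2% higher, and the median change was -0.81 for the members and -0.34 for all genes. The lowest members were Gstm1 (6.21 against 7.61), Keap1 (5.70 against 7.09), Gsta4 (6.76 against 8.13), Cat (9.73 against 10.93), Sod2 (9.84 against 11.00) and Gstp1 (8.93 against 10.06). The others called lower ran from -1.11 (Abcc1 and Gsr) to -0.60 (Pgd): Nfe2l2 read 8.76 against 9.81, Taldo1 6.15 against 7.18, Me1 8.15 against 9.16, Gpx1 7.11 against 8.11, Gclm 8.41 against 9.24 and Srxn1 7.32 against 7.95, and Abcc4, Blvrb, Ephx1, Gpx4, Txn1 and Sqstm1 lay between -0.87 and -0.63. Txnip was the member called higher, at 9.36 against 8.39 (0.97). The 2 arrays were scaled to a similar mean intensity (201.5 with DRB and 208.5 with vehicle). A higher or steady value is thus relative to the other genes, and the amount of RNA was not measured. Hmox1 (7.91 against 8.26), Nqo1 (5.32 against 5.07), Txnrd1 (9.41 against 9.24) and Gclc (9.76 against 9.55) moved by less than 1.5-fold. Of 65 other pathway genes 34 were lower and 3 higher, the 3 being Maff (7.17 against 5.67), Bach1 (8.81 against 8.01) and Gpx8 (10.33 against 9.61), and the lowest Txnrd3 (3.15 against 6.34), Gstk1 (4.97 against 7.16), Mt3 (7.38 against 9.42) and Msrb1 (6.01 against 7.81). With DRB astrocyte markers averaged 6.76 against 7.95 with vehicle, fibroblast and meningeal markers 6.93 against 7.51 and pan-neuronal markers 10.55 against 10.88; their part in these results was not tested.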

How the data were processed

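Transcript levels in neuron cultures were read on 3 Affymetrix array types. The deposited values are linear intensities, which the authors made with RMA in Affymetrix Expression Console, per the submitters' processing notes; log2 was taken here. Arrays of a type appear to have been normalized in several sets. The sets were inferred from the mean intensity of the arrays alone, and what else differed between them is not known. Samples were grouped by their titles and treatment labels, since some descriptions contradict the titles. Each gene was read from its brightest probe set with 1 symbol in the platform annotation, and dim genes, below the 40th percentile of their average log2 intensity, were dropped, which kept 10916, 11292 and 13308 genes on Mouse430_2, MoGene-1_1-st-v1 and MoGene-2_1-st arrays. A weak gene near background has a compressed difference.

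Groups were compared with limma 3.58.1 in R 4.3.3 (lmFit and eBayes, two-sided, Benjamini-Hochberg over all genes kept, threshold 0.05), within each experiment, with the array set as a term for the knockdowns and a slope per dose step for the dose series. The fits were tested on simulated data. Single arrays got no test: a gene was called at 1.5-fold from every control array, in the same direction. The number of arrays limits the precision. Every member past a threshold was to be named, with per-array values for those with the largest changes and for the NRF2 marker genes in every comparison. The members, marker lists, pathway list and tests were chosen with earlier results of these data known. Same-numbered arrays deviated together for ICRF-193 (correlations 0.38, 0.23 and 0.38). For Top2b shRNA the correlations were 0.45, 0.39 and 0.35, and for Top1 shRNA 0.32, 0.06 and 0.29. The array set, which holds replicate 1 apart, was not removed from them, so they cannot tell pairing from set. Top2b shRNA replicate 2 and Top1 shRNA replicates 2 and 3 matched a control array of another number best. Alternatives were no filter or a 60th percentile filter, all probe sets averaged, new quantile normalization, a replicate block, no array set term, other dose scales, a 2-fold rule and leaving out each array. Promoter sequences are from RefSeq.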

Additional observations from a re-analysis of the deposited data

Results flagged for a closer look

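Of 60 pairs of a member and a group of 6 arrays, 4 held an array far from the other 5, where chance gives about 1 in 20. Ephx1 read 10.44 on topotecan (1 µM) replicate 4, against 10.69 to 10.83 on the other topotecan arrays. Vehicle replicate 4 of the same experiment was high for Txnrd1 (9.80, others 9.16 to 9.36), Fth1 (12.54, others 12.31 to 12.37) and Ephx1 (10.91, others 10.44 to 10.61). The cause was not tested.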

How the results depend on the processing

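Of 2599 values under alternative settings 2244 were labelled the same. For a tested gene this means that it kept its call or lack of one, and for a count that it stayed within 1.5 times. A change without a test had to stay within 1 SD of the control arrays or of the replicate differences. Of the rest 178 no longer passed, 19 newly passed, 158 moved and 0 reversed. Reversal was only looked for where a gene was called, so an uncalled change may have switched sign. Without the filter on dim genes 1 member was called with ICRF-193 (7.07% of all genes) and 3 with irinotecan (10%). With the replicate number as a block 8 were called with ICRF-193 (26.5% of all genes), 4 with irinotecan (18.8%) and 8 with Top2b shRNA (10.2%), where the replicate numbers of irinotecan and of topotecan did not pair the arrays; in topotecan at 1 µM Me1 (adjusted p = 0.0504) and Cat (adjusted p = 0.0921) no longer passed in limma. Without the array set term 6 were called with Top2b shRNA (3.11% of all genes) and 10 with Top1 shRNA (11.9%). In the dose series 4 had a slope over the 7 arrays without 1000 nM and vehicle replicates 1 and 2, which was chosen after seeing the data (9.98% of all genes). At 2-fold 1 member was called with hydrogen peroxide (0.751% of all genes), 0 with paraquat (0.902%), 11 with DRB (24.8%) and 1 with topotecan for 24 h (2.3%). Against the DRB vehicle array, also chosen after seeing the data, 12 were called with hydrogen peroxide (12.1% of all genes) and 5 with paraquat (5.04%). Beyond fewer or other arrays and genes, the cause was not tested.

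Leaving out 1 array at a time, the members called ranged from 11 to 16 with Top1 shRNA (14.3% to 35.1% of all genes), 6 to 11 with Top2b shRNA (3.92% to 19.9%) and 0 to 2 for their difference (0% to 5.48%). With topotecan at 1 µM they ranged from 10 to 14 (34.6% to 44.3%), and with irinotecan from 5 to 8 when a drug array was left out (19.8% to 25.8%). The range was 0 to 1 with topotecan at 300 nM (0.824% to 4.56%) and 1 to 8 with ICRF-193 (8.11% to 25.9%). In the dose series it was 0 to 2 (1.2% to 7.22%), where 2 passed without the 1000 nM array (7.22%). For the single arrays 1 control array is easier to pass than 2. Against vehicle replicate 2 alone 10 members were called with hydrogen peroxide (10.9% of all genes) and 3 with paraquat (7.4%). Against vehicle replicate 1 alone 7 members were called with hydrogen peroxide (33.9%) and 10 with paraquat (41.2%). The members called ranged from 6 to 7 with topotecan for 24 h (10.6% to 11.1%) and from 0 to 1 after washout (1.28% to 1.85%).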
